A study of Macaca mulatta with 8 samples.

Results

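This account covers RNA helicases and genes of small RNA pathways in mature eggs of the rhesus macaque, arrested in metaphase of the second meiotic division (MII) until a sperm enters. The members were chosen by gene symbol, with earlier results of these data known, the TDRD1 call among them. They are the probe sets with 1 platform symbol that starts with DDX, DHX, TDRD, PIWIL, TNRC6 or MOV10, or with AGO and a digit, together with those of DICER1, DROSHA, DGCR8 and TARBP2. The rule found 118 probe sets of 59 genes among 52766 probe sets that are not controls. Eggs matured inside the animal (in vivo, 4 arrays) were set against eggs matured in culture (in vitro, 4 arrays). For each array, RNA from 4 pooled oocytes of Macaca mulatta was amplified in 2 rounds and hybridised to an Affymetrix array, where a probe set is the group of probes for 1 target. The labels call the pools biological replicates without naming the animals behind them, so a p-value here speaks only of the spread from pool to pool, which may be technical. The age and hormone treatment of the animals and the culture conditions are not given in the sources used here.

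DEAD-box (DDX) and DEAH-box (DHX) helicases use ATP to unwind RNA or to strip proteins from it, and different members act in splicing, ribosome synthesis, export, translation and decay. Small RNAs of the germ line work through Argonaute proteins. AGO proteins carry microRNAs and small interfering RNAs that DICER1 cuts from double-stranded precursors, and PIWI proteins carry piRNAs, which silence transposons. Many Tudor domain (TDRD) proteins, though not all, bind methylated arginines of PIWI proteins and hold them in germ granules. An egg stores its transcripts and is largely silent in transcription at this stage.

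Signals are MAS5 values, and the mean of every array without its extreme 2% on either side was about 150. From 49.9% to 60.9% of an array's probe sets were above background, the 95th percentile of 59 control probe sets that were not spiked in. The 9 oocyte marker genes measured, MOS and BMP15 among them, were all above background on all 8 arrays. None of 6 blood and immune marker genes was above background on every array. Of 13 granulosa and cumulus marker genes 9 were, and their summed signal ran from 6290.5 to 8083 in vivo and from 7928 to 10829 in vitro. Of 22 tested probe sets of that list, 3 passed the test, all higher in vitro, for INHBA and STAR. By sign, 10 of the 22 were higher in vitro and 12 lower, with a median log2 difference of -0.03 (in vitro minus in vivo). Of 7 theca, stroma and endothelium marker genes, VWF and PECAM1 were above background on every array, and their list summed to between 463.7 and 712.8 in vivo and between 537 and 1138 in vitro. The blood list summed to between 179 and 241 in vivo and between 67.8 and 153.7 in vitro. The part of such cells in the results was not tested. A pool of oocytes gives 1 signal, so fewer cells of a type and less RNA per cell cannot be told apart. The log2 ratio of 3' to 5' control signals, a measure of how far amplified RNA reached, ran from 5.68 to 7.23 in vivo and from 5.68 to 6.75 in vitro for beta-actin. For EEF1A1 it ran from 1.44 to 3.68 in vivo and from 1.84 to 2.30 in vitro. With 4 arrays a group, precision is limited by their number.

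The question put to the data was which of these transcripts differ with the place of maturation. A fold change is the difference of mean log2(signal + 8.2), in vitro minus in vivo, which understates the change of dim transcripts. Of the 118 probe sets, 89 (75.4%) of 54 genes were bright enough to be tested, as were 26383 of the 52766 on the whole array. TDRD1 rose, and no other member passed a limma p under 0.05 adjusted over all 26383 tested probe sets. This is 1 of 89 members, against 0.144% of all tested probe sets. Since the TDRD1 call was known when this gene set was drawn up, its share among the members is no independent evidence. The median log2 fold change of the 89 was 0.02, that of all tested probe sets was 0.01, and 73 of the 89 lay within 0.5 of 0.

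**Figure D1:**
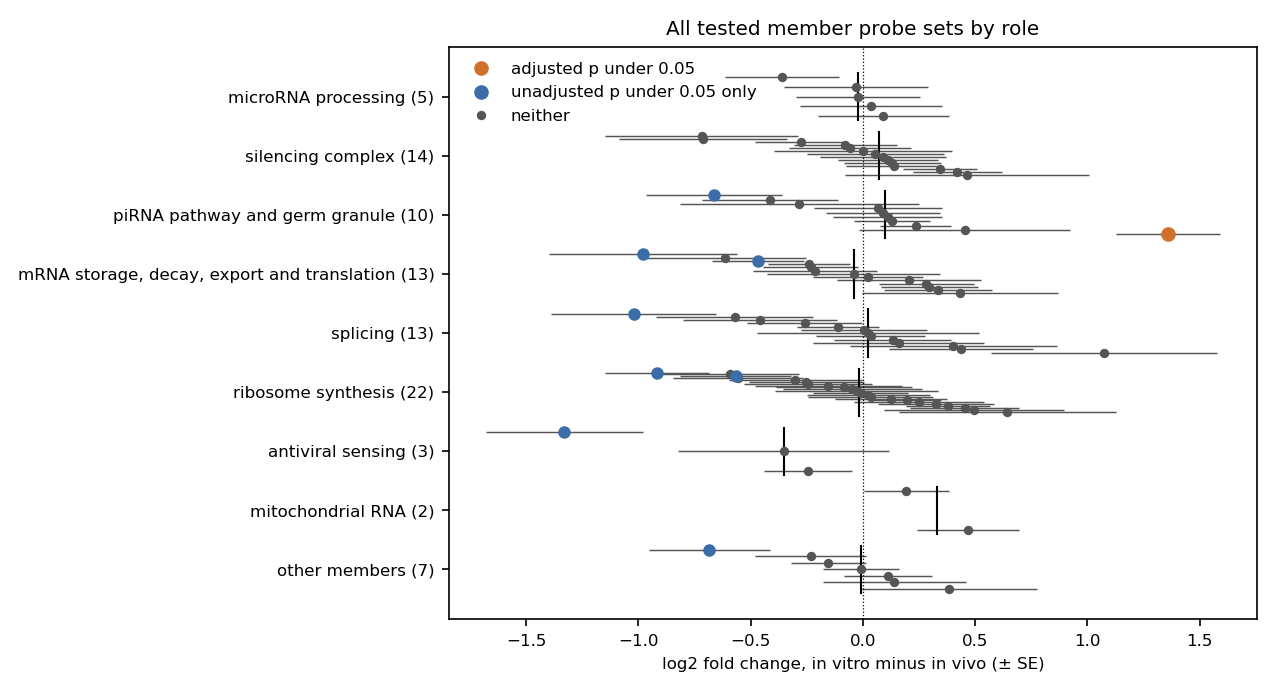
Log2 fold change of each of the 89 tested member probe sets, in vitro minus in vivo (points, with bars of 1 SE), grouped by role, with the number of probe sets in brackets and the median of a role as a vertical line. TDRD1 at 1.36 is the orange point, the 8 blue points at the left reached an unadjusted p under 0.05 with lower signals in vitro, and most others lie close to 0.

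TDRD1 encodes a germ granule scaffold with several Tudor domains that binds PIWI proteins. Its only probe set, MmuSTS.814.1.S1_s_at, had signals of 100.2, 100.5, 111 and 126 in vivo and 309, 199.9, 347 and 339 in vitro (in the order of replicates 1 to 4, as for all such values here). All 4 in vitro arrays lay above all 4 in vivo arrays, and in vitro replicate 2 was the lowest of its group. Its mean ± SD was 109 ± 12.03 in vivo and 299 ± 67.8 in vitro (n = 4 per group, as for every mean ± SD here), a 2.56-fold rise. The log2 fold change was 1.36 ± 0.23 (SE), with a 95% interval of 0.86 to 1.86 and a limma adjusted p of 0.0349. Probe sets with this name ending share probes with more than 1 transcript, so other transcripts can add to the signal. The granulosa and cumulus list reached higher sums in vitro, with overlapping ranges, although 12 of its 22 tested probe sets were lower in vitro. Its calls were for INHBA and STAR only. INHBA (MmuSTS.701.1.S1_at) went from a mean of 165 in vivo to 1483 in vitro, and STAR from 191 to 1181, so these genes weigh heavily in the sums. The part of such cells in the TDRD1 value was not tested.

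The rise kept its direction under all 20 alternatives run, between 1.23 and 1.54 on the log2 scale, but it lies close to the threshold. With 1 array left out, the limma adjusted p was 0.102 (in vivo replicate 2), 0.0516 (in vivo replicate 3), 0.164 (in vitro replicate 1), 0.154 (in vitro replicate 3) or 0.142 (in vitro replicate 4). The limma adjusted p was 0.0526 with median centring, 0.0576 with the replicate number fitted as a block and 0.150 without the intensity trend.

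**Figure D2:**
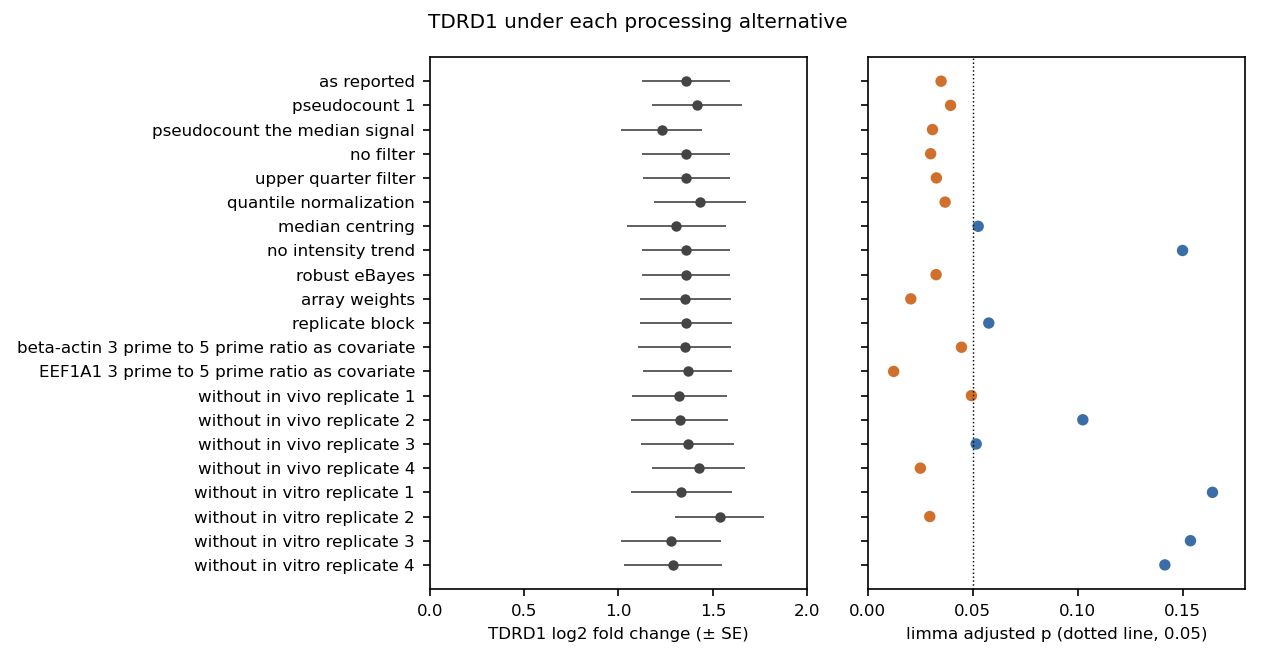
TDRD1 under each processing alternative: the left panel gives its log2 fold change, in vitro minus in vivo, with bars of 1 SE, and the right panel its limma adjusted p, orange below and blue above the dotted line at 0.05. The fold change stays between 1.23 and 1.54, while the adjusted p runs from 0.0123 to 0.164.

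None of the other Tudor domain genes passed limma's adjusted threshold. TDRD7, a germ granule protein that controls the translation of stored transcripts, had 2051, 1686, 1676 and 1602 in vivo and 2141, 2042, 1821 and 2243 in vitro. The in vivo replicate 1 value lay inside the range of the in vitro group, and the log2 fold change was 0.23 with an interval of -0.11 to 0.58. TDRD6, needed for the chromatoid body of male germ cells, was measured at 991 ± 82.2 in vivo and 1087 ± 119.8 in vitro, where a log2 fold change of 0.13 had an interval of -0.23 to 0.49. TDRD9, which joins a helicase to a Tudor domain and silences transposons, was at 201 ± 54.4 in vivo and 215 ± 43.5 in vitro. These 3 transcripts were above background on all 8 arrays, and their groups overlapped. The interval of TDRD9 was -0.41 to 0.63, and all 3 intervals include 0. TDRD5, another piRNA factor, at 24.2 ± 17.9 in vivo and 16.98 ± 11.2 in vitro, was too dim to be tested. TDRD10 was at 39.2 ± 25.2 in vivo and 35.4 ± 27.8 in vitro, above background on 5 of the 8 arrays.

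TDRD3 is a reader of methylated arginine that partners a topoisomerase. It had 3 tested probe sets, which differed from each other. MmugDNA.1882.1.S1_s_at had 134, 153, 387 and 158 in vivo and 119.5, 112, 136 and 100 in vitro, with in vivo replicate 3 far above the others and a log2 fold change of -0.66 (unadjusted p = 0.0460, limma adjusted p = 0.477). Without in vivo replicate 3 that fold change was -0.33. A second probe set gave a log2 fold change of -0.41 and also had its highest signal, 232, on in vivo replicate 3. The third had a log2 fold change of 0.09, at 148 ± 42.8 in vivo and 155 ± 27.8 in vitro. The remaining TDRD3 probe set, at 10.8 ± 7.10 in vivo and 10.1 ± 5.96 in vitro, was not above background on any array.

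The 3 PIWI genes measured gave no call. PIWIL2 was above background on all 8 arrays, at 79.2 ± 21.7 in vivo and 83.8 ± 26.6 in vitro, with a log2 fold change of 0.07 and an interval of -0.55 to 0.68. PIWIL3, a PIWI gene that mice lack and that oocytes of several other mammals express, had 4.70, 39.5, 64.1 and 25.6 in vivo and 32.9, 51.0, 33.3 and 44.0 in vitro. It was above background on 2 in vivo and on 4 in vitro arrays, with a log2 fold change of 0.45 and a wide interval of -0.56 to 1.46. Without in vivo replicate 1, its lowest array, the log2 fold change was -0.03. PIWIL4, at 14.6 ± 10.1 in vivo and 5.58 ± 6.60 in vitro and too dim to be tested, was above background on 1 array. Both probe sets of MOV10L1, the helicase that starts piRNA processing, were too dim to be tested, with log2 differences of 0.25 and 0.36. In all, the piRNA and germ granule group held 15 probe sets of 11 genes, of which 10 were tested, 1 rose and 9 did not pass, with a median log2 fold change of 0.10. The group took every TDRD gene by symbol, TDRD3 and TDRD10 among them. PIWIL1, TDRD12, DDX4, DDX25 and DDX43 were not analysed here.

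**Figure D3:**
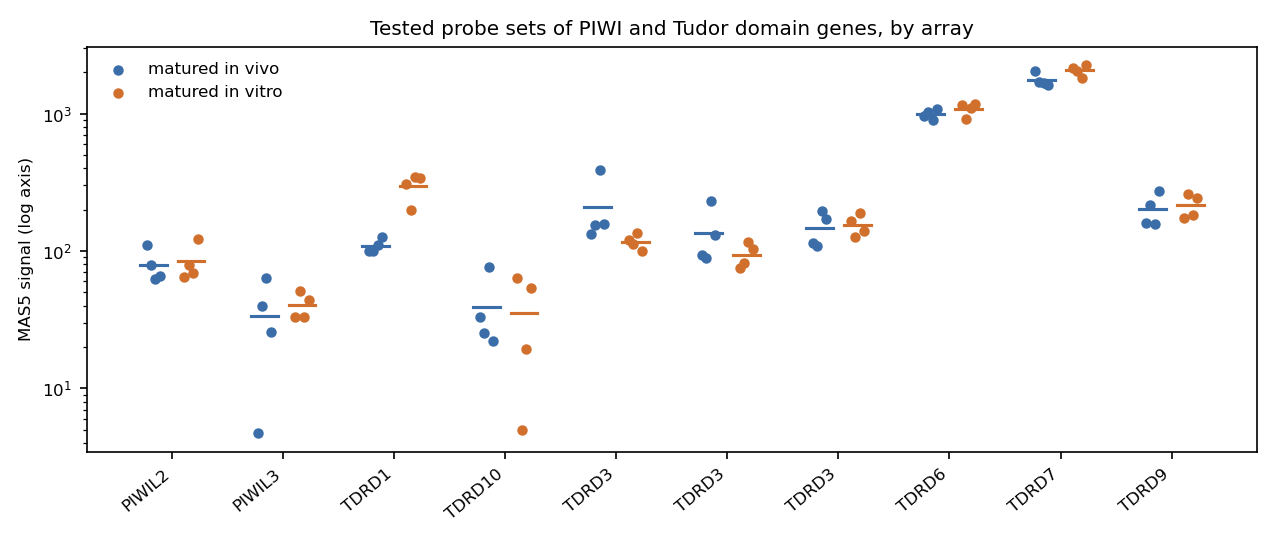
Signal of the 10 tested probe sets of PIWI and Tudor domain genes on each array, on a log axis (points, 4 per group; lines, group means; blue, in vivo; orange, in vitro). The TDRD1 groups do not overlap, the 3 TDRD3 probe sets differ from each other, and 1 in vivo array of PIWIL3 lies far below the rest.

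Genes that make microRNAs held no call. The group had 5 tested probe sets of 3 genes, 0 of which passed limma's adjusted threshold and 0 an unadjusted p under 0.05, with log2 fold changes from -0.36 to 0.09. DICER1, the nuclease that frees microRNAs and small interfering RNAs, had 3 tested probe sets. MmugDNA.8316.1.S1_at had 119, 172, 115 and 364 in vivo and 200.2, 148, 198 and 165 in vitro, with in vivo replicate 4 above the other arrays. The log2 fold changes were 0.04, 0.09 and -0.02, and their widest interval was -0.64 to 0.71. The remaining DICER1 probe set was above background on 2 arrays. TARBP2, a partner of DICER1 that binds double-stranded RNA, had 127, 138, 217 and 153 in vivo and 91.8, 157, 108 and 128 in vitro. The groups overlapped, and its log2 fold change was -0.36 with an interval of -0.90 to 0.18. DHX9, a helicase that opens long RNA duplexes, was measured at 173 ± 88.1 in vivo and 154 ± 18.2 in vitro by its only tested probe set (log2 fold change -0.03), and the 3 others were too dim. DROSHA, DGCR8, DDX5 and DDX17 were not analysed here.

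The silencing complex loads the small RNA and acts on its target. AGO2, the Argonaute that can cut the target, had 328, 235, 194 and 253 in vivo and 289, 308, 260.2 and 238 in vitro, a log2 fold change of 0.13 with an interval of -0.33 to 0.59. The 2 probe sets of AGO1 had log2 fold changes of -0.08 and -0.06, at 272 ± 49.8 in vivo and 259.9 ± 59.6 in vitro for the former. AGO3 and AGO4 lay close to background. AGO3 had 38.0, 28.6, 37.6 and 26.9 in vivo and 8.10, 17.3, 41.6 and 9.80 in vitro, and in vitro replicate 3 was the highest of all 8, so the groups overlapped (log2 fold change -0.72, limma adjusted p = 0.596). AGO4 had 57.1, 28.8, 80.8 and 56.2 in vivo and 48.1, 35.3, 21.0 and 18.7 in vitro where it was tested, a log2 fold change of -0.71 with an interval of -1.51 to 0.09. A second AGO4 probe set, too dim to be tested, had 63.8, 19.2, 45.5 and 12.3 in vivo and 5.40, 8.30, 4.30 and 6.20 in vitro. Its in vitro arrays were all below its in vivo arrays and not above background. Set against background, the signal was 1.28-fold lower in vitro. In vivo replicate 4, at 12.3, was not above background either and entered as measured, so this fold is no strict bound. The third AGO4 probe set was not above background on any array.

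TNRC6 proteins bind AGO proteins and recruit the enzymes that shorten poly(A) tails. TNRC6B had 7 tested probe sets with log2 fold changes from -0.28 to 0.42. The latter had 1263, 1533, 1118 and 1857 in vivo and 2474, 1726, 1692 and 1798 in vitro, and in vitro replicate 1 stood above the rest (limma adjusted p = 0.491). The next, MmugDNA.16858.1.S1_s_at, had 2982, 3766, 2712 and 3246 in vivo and 4784, 4142, 3678 and 3532 in vitro and a log2 fold change of 0.34. MmugDNA.16858.1.S1_at, at 4829 ± 1676 in vivo and 5029 ± 750.4 in vitro, had a log2 fold change of 0.11. TNRC6C was above background on at most 5 arrays at any of its 4 probe sets, and its only tested one had a log2 fold change of 0.46 with an interval of -0.70 to 1.63. MOV10, a helicase found with AGO proteins, was measured at 70.2 ± 17.1 in vivo and 74.9 ± 17.1 in vitro, with a log2 fold change of 0.09. The group held 14 tested probe sets of 7 genes, of which 0 passed limma's adjusted threshold and 0 an unadjusted p under 0.05, with a median of 0.07. TNRC6A was not analysed here.

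Every member helicase probe set with an unadjusted p under 0.05 had lower signals in vitro. Over all 89 tested member probe sets there were 8 lower ones, TDRD3 among them (8.99%, against 5.53% of all tested probe sets) and 1 higher, TDRD1 (1.12%, against 4.70%). The groups did not overlap at 2 lower probe sets (2.25%, against 3.11% of all) and 1 higher (1.12%, against 3.17%). Counted in both directions, 10.1% of members and 10.2% of all tested probe sets had an unadjusted p under 0.05, so the share of members was close to the background. The lower count was 5 without in vivo replicate 3, in vitro replicate 1 or in vitro replicate 4, and with in vitro replicate 2 left out it was 4. The higher count was 2 with in vitro replicate 3 left out and 5 with in vivo replicate 4 left out. It was 4 with in vivo replicate 1, in vivo replicate 2 or in vitro replicate 4 left out. Without in vivo replicate 3, in vitro replicate 1 or in vitro replicate 2 it stayed at 1. Of the 8 lower ones 0 passed the adjusted threshold in the fit reported here. The counts by role stand against the same shares of all tested probe sets, 5.53% lower and 4.70% higher, and each role held few probe sets.

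Ribosome synthesis held the lower probe set with the smallest p. DDX56, a nucleolar helicase of the large ribosomal subunit, had 886, 1514, 2024 and 1701.6 in vivo and 677, 902, 730.4 and 797 in vitro. In vivo replicate 1 lay within the in vitro range, while the other 3 in vivo arrays lay above all in vitro arrays. The log2 fold change was -0.92 ± 0.23 (SE; unadjusted p = 0.00139, limma adjusted p = 0.199). Without in vivo replicate 1 it was -1.16 and passed, at a limma adjusted p of 0.0211. DDX10, a factor of the small subunit, had 4 tested probe sets. MmuSTS.2164.1.S1_s_at had 92.2, 121, 92.5 and 86.3 in vivo and 58.3, 57.8, 64.0 and 72.5 in vitro, with all in vitro arrays below all in vivo arrays (log2 fold change -0.57, limma adjusted p = 0.455). Its sister MmuSTS.2164.1.S1_at had a log2 fold change of -0.56, while MmuSTS.2283.1.S1_at, at 2427 ± 1299 in vivo and 2263 ± 261 in vitro, had one of 0.03. DDX24 had log2 fold changes of 0.38, -0.01 and -0.16, and DDX18 had values of 0.45, 0.25 and -0.59. DDX18 is known from large subunit assembly. DDX47, at 3514 ± 320.1 in vivo and 4027 ± 409 in vitro, had a log2 fold change of 0.20, and DDX31, DDX49, DDX50, DDX51, DDX54, DHX33 and DHX37 lay between -0.30 and 0.64. The group held 22 tested probe sets of 12 genes, with 0 past the limma adjusted threshold, 2 lower at an unadjusted p under 0.05, and a median of -0.02.

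The antiviral group comprises 3 genes that interferon can induce. Its 3 tested probe sets had 0 calls at limma's adjusted threshold, 1 lower at an unadjusted p under 0.05, and a median of -0.35. DDX60L had 250, 281, 260.4 and 441 in vivo and 171, 96.0, 50.9 and 196 in vitro. All in vitro arrays lay below all in vivo arrays, and in vitro replicate 3 was the lowest. The log2 fold change was -1.33 ± 0.35 (SE; unadjusted p = 0.00186), the largest negative value among the tested members, and the limma adjusted p was 0.212. Its relative DDX60 had 671, 739, 733 and 492 in vivo and 567, 610.5, 580 and 449 in vitro, a log2 fold change of -0.24 with an interval of -0.66 to 0.18. The second DDX60 probe set was not above background on any array. DHX58, which regulates the RNA sensor RIG-I, was near background at 33.5 ± 10.4 in vivo and 27.8 ± 16.4 in vitro. RIGI itself, outside the symbol rule, was at 57.9 ± 19.9 in vivo and 66.0 ± 28.1 in vitro, with a log2 fold change of 0.12.

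Splicing helicases remodel the spliceosome at each step. DDX41 had 71.1, 38.0, 70.7 and 52.0 in vivo and 19.2, 24.6, 13.3 and 44.8 in vitro. Its highest in vitro array, replicate 4, lay above in vivo replicate 2, and 2 of the in vitro arrays were not above background. The log2 fold change was -1.02 ± 0.37 (SE; unadjusted p = 0.0147, limma adjusted p = 0.364). DDX42, which acts early in spliceosome assembly, had 37.3, 12.6, 15.1 and 1.20 in vivo and 41.5, 60.0, 18.4 and 36.8 in vitro at a probe set above background on 4 arrays (log2 fold change 1.07, limma adjusted p = 0.491). Its other probe set, at 810.0 ± 143 in vivo and 743 ± 61.6 in vitro and above background on all arrays, had a log2 fold change of -0.11. The 2 probe sets of DDX23 pointed in opposite directions, with log2 fold changes of -0.57 and 0.44, and at the former in vivo replicate 3 was at 611 against 156 to 252.5 on the other in vivo arrays. DHX38 had log2 fold changes of 0.03 and 0.13, and DHX16 had one of 0.00. DDX46 had a log2 fold change of -0.46, DHX15 0.16, DHX35 -0.26 and DHX8, which releases the spliced message, 0.02 and 0.40. The group held 13 tested probe sets of 9 genes, with 0 past the limma adjusted threshold, 1 lower at an unadjusted p under 0.05, and a median of 0.02.

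**Figure D4:**
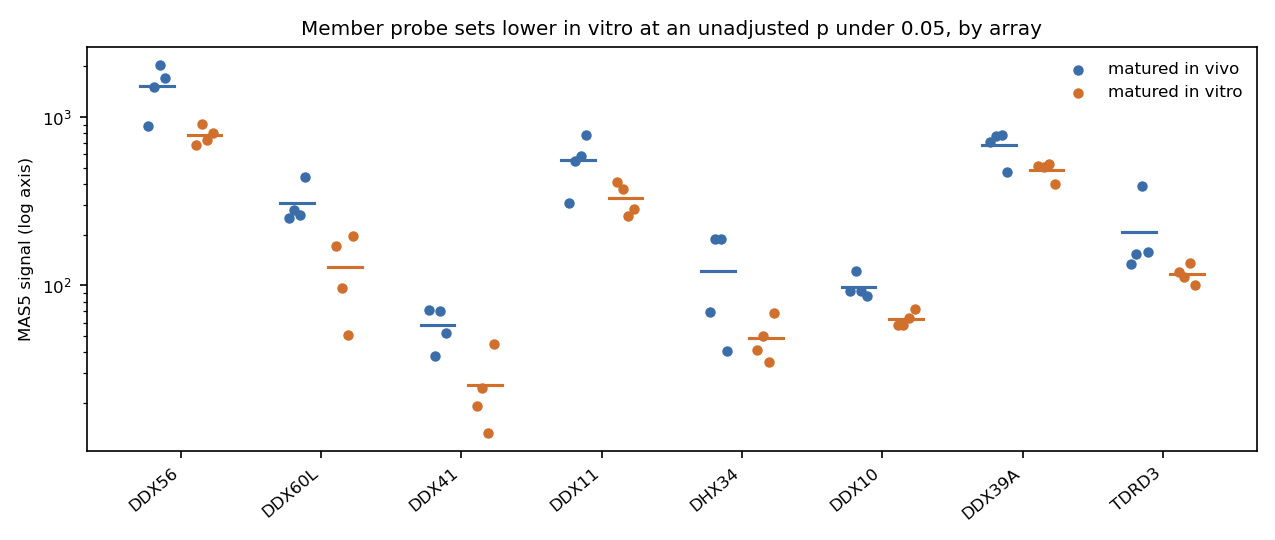
Signal on each array, on a log axis, of the 8 member probe sets with lower signals in vitro at an unadjusted p under 0.05, ordered by p (points, 4 per group; lines, group means; blue, in vivo; orange, in vitro). Only DDX60L and DDX10 have groups that do not overlap, and 1 in vivo array of DDX56 lies within its in vitro range.

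Helicases of mRNA export, translation and decay handle messages after they are made. DDX3X, which helps ribosomes start on structured transcripts, had 789, 874, 1213 and 1119.7 in vivo and 1154, 893, 1223 and 1635 in vitro at MmugDNA.43494.1.S1_at. That probe set and MmugDNA.43494.1.S1_x_at, of the same target, had log2 fold changes of 0.28 and 0.29. The third was far dimmer, at 52.7 ± 18.1 in vivo and 32.4 ± 16.1 in vitro, and above background on 4 in vivo and 3 in vitro arrays. Its log2 fold change was -0.61 (limma adjusted p = 0.587). DDX20, a subunit of the SMN complex that assembles small nuclear ribonucleoproteins, had 3 probe sets above background on all arrays. They had log2 fold changes of -0.23, -0.24 and 0.21, and at the last in vivo replicate 1 was at 1034 against 396 to 474 on the other in vivo arrays. DDX39A, an export helicase, had 706, 771, 777 and 473 in vivo and 512, 501, 525 and 399 in vitro. In vivo replicate 4 lay inside the in vitro range, and the log2 fold change was -0.47 (unadjusted p = 0.0387, limma adjusted p = 0.457). DHX34, which acts in nonsense-mediated decay, had 68.9, 187, 187 and 40.9 in vivo and 41.5, 49.6, 35.1 and 68.6 in vitro. In vivo replicates 2 and 3 stood above all other arrays (log2 fold change -0.98, limma adjusted p = 0.443), and its second probe set gave a log2 fold change of 0.43. The second DDX39A probe set gave a log2 fold change of -0.21. DDX19A had log2 fold changes of 0.33 and 0.02, and DHX29 had one of -0.04. All 13 probe sets of the 6 genes were tested, with 0 past the limma adjusted threshold, 2 lower at an unadjusted p under 0.05, and a median of -0.04. DDX6 and DHX36 were not analysed here.

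The remaining members were DHX30 and 6 genes of other roles. DHX30, which helps assemble the mitochondrial ribosome, had 406, 534, 388 and 275 in vivo and 585, 649.6, 539 and 424 in vitro, with in vivo replicate 2 inside the in vitro range (log2 fold change 0.47, limma adjusted p = 0.504). Its other tested probe set gave a log2 fold change of 0.19. DDX11 is a DNA helicase of sister chromatid cohesion that shares the DDX symbol. It had 306, 550.2, 584 and 785 in vivo and 408, 375, 257 and 285 in vitro, with in vivo replicate 1 inside the in vitro range (log2 fold change -0.68, unadjusted p = 0.0230, limma adjusted p = 0.402), and a second probe set gave a log2 fold change of 0.14. DHX40 had log2 fold changes of -0.15 and -0.23, DHX57 had one of 0.38, DHX32 had one of 0.11 and DDX59 had one of -0.01. DDX53 was above background on 2 arrays and was not tested.

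Of 21 member genes with more than 1 tested probe set, 14 (66.7%) had both a positive and a negative log2 fold change, against 51.1% of all genes with several tested probe sets, not matched for their number per gene. Values near 0 differ in sign within their error, as for DICER1, so this count shows no disagreement by itself. The gaps were widest for DHX34, from -0.98 to 0.43, and for DDX42, from -0.11 to 1.07. TDRD1, DDX56, DDX41 and DDX60L each had 1 probe set, so that no second measurement bears on them.

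**Figure D5:**
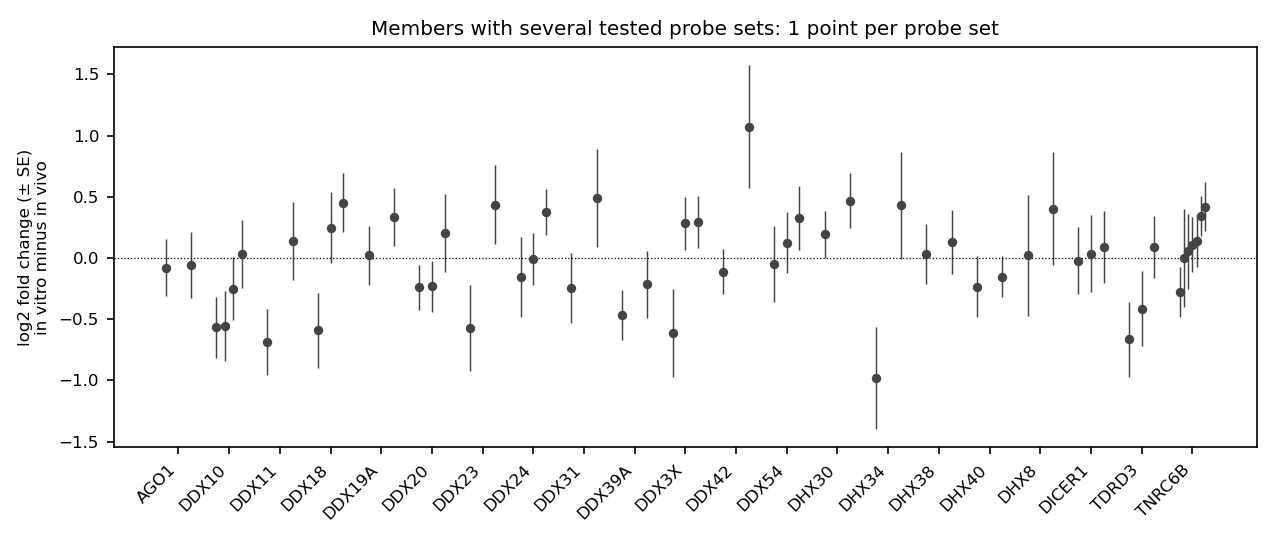
Log2 fold change, in vitro minus in vivo, of every tested probe set (points, with bars of 1 SE) for the 21 member genes with more than 1 tested probe set. In 14 of the 21 genes the points lie on both sides of 0, as for DHX34 and DDX42.

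In all, 29 member probe sets were too dim to be tested, among them every probe set of 5 genes (DDX53, DDX55, MOV10L1, PIWIL4 and TDRD5). Of the 29, 10 were not above background on any array and 25 were above it on at most 3 arrays.

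Partners of these genes outside the symbol rule gave no call either. Of 12 tested probe sets of 10 piRNA partner genes, 0 passed limma's adjusted threshold, 1 was higher and 2 were lower at an unadjusted p under 0.05. Over all tested probe sets, 4.70% were higher and 5.53% lower at that p, and the list is short. GPAT2, a mitochondrial acyltransferase relative needed for piRNA production, had 298, 402, 710.4 and 269.8 in vivo and 167, 109, 175 and 167 in vitro. All its in vitro arrays lay below all in vivo arrays, with a log2 fold change of -1.31 ± 0.29 (SE; limma adjusted p = 0.111). It passed without in vivo replicate 4, at a limma adjusted p of 0.0443. PNLDC1, the nuclease that trims piRNA ends, had 244, 268, 605 and 256 in vivo and 217, 176, 159 and 229 in vitro, also without overlap (log2 fold change -0.69, limma adjusted p = 0.417). Without in vivo replicate 3 the log2 fold change was -0.39. The higher one was a probe set of SND1, a Tudor domain nuclease, at 16.2 ± 7.95 in vivo and 36.1 ± 8.68 in vitro, with 0.91 on the log2 scale and above background on 1 in vivo and 4 in vitro arrays. The other SND1 probe set, above background on all 8 arrays at 492 ± 92.1 in vivo and 365 ± 47.4 in vitro, lay on the opposite side of 0 with -0.41 (limma adjusted p = 0.508). MAEL and HENMT1, further piRNA factors, had log2 fold changes of 0.05 and 0.07; these and SND1 are named with their values already known.

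Of 33 tested probe sets of 18 microRNA partner genes, 0 passed limma's adjusted threshold, 2 were higher and 1 was lower at an unadjusted p under 0.05 (4.70% and 5.53% of all tested probe sets). TUT7, which adds uridines to microRNA precursors and to messages, had 221, 319, 229.5 and 194 in vivo and 111, 112, 130.5 and 165 in vitro, with no overlap (log2 fold change -0.85, limma adjusted p = 0.242). Of 4 tested probe sets of HSP90AB1, a chaperone used in loading AGO proteins, the one past that p had a log2 fold change of 0.36 and the others had 0.15 or less, and TSNAX, which partners translin in clearing cut passenger strands, had one of 0.57. Of 21 tested probe sets of 9 other RNA helicases, 0 passed the limma adjusted threshold, and the median was 0.12. At an unadjusted p under 0.05, 4 were higher and 0 lower, against 4.70% and 5.53% of all tested probe sets. ASCC3, which helps resolve stalled ribosomes, had 4853, 5193, 4499 and 5288 in vivo and 7096, 6893, 6048 and 5835 in vitro, with all in vitro arrays above all in vivo arrays (log2 fold change 0.38, limma adjusted p = 0.392). Its other tested probe set, at 51.9 ± 10.96 in vivo and 48.0 ± 31.5 in vitro, lay on the opposite side of 0 with -0.23 (limma adjusted p = 0.871). YTHDC2, a germ line helicase that reads methylated adenosine, had a log2 fold change of 0.70 at its probe set with the smallest p (limma adjusted p = 0.422). The remaining ones were a second YTHDC2 probe set, at 0.45, and HELZ, at 0.44 on the same scale. The remaining tested probe sets of YTHDC2 and HELZ had positive values from 0.12 to 0.50 and did not reach an unadjusted p under 0.05. TSNAX and HELZ were likewise picked with their values known.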

How the data were processed

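The deposited intensity values are linear MAS5 signals per the submitters' processing notes (no version is named). They came from 8 arrays, 4 per group. From them, log2(signal + 8.2) was computed, 8.2 being the 25th percentile of non-control signals. Probe sets with a mean above the 50th percentile were tested (26383 of 52766). The comparison used limma 3.58.1 under R 4.3.3 (lmFit, eBayes with an intensity trend) and Benjamini-Hochberg adjustment at 0.05, and the fit was tested on simulated data. Where all arrays of a group were at or below background, a fold is set against the higher of background and signal, with the other group as measured. Genes were named from the platform annotation; 115 of 118 Entrez identifiers were found in the RefSeq table of T2T-MMU8v2.0, and 0 symbols changed. Coordinates and sequences were not used here.

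The members and lists were chosen with earlier results of these data known. Values are given for calls, up to 4 members of each role with the smallest p, core small RNA genes, and up to 2 genes of each partner list. Other names were chosen after their values were seen. Alternatives were pseudocounts of 1 and 27.7, 2 filters, median centring, quantile normalization, eBayes without a trend or made robust, weights per array, a replicate block, the beta-actin ratio as a covariate, and each array left out. The EEF1A1 covariate was added after seeing the data.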

Additional observations from a re-analysis of the deposited data

Results flagged for a closer look

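A sample that stood far from the other 3 of its group was found in 10 of 150 groups of 4 arrays, over 75 named probe sets. Chance alone gives about 1 in 20 groups.

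In the in vitro group, replicate 1 stood apart at 4 probe sets. It was at 126.5 for DHX9 (MmunewRS.268.1.S1_s_at, others 160 to 165.7) and at 2474.2 for TNRC6B (MmugDNA.34590.1.S1_at, others 1691.6 to 1798.2). It was at 1.2 for the TDRD3 probe set MmugDNA.31740.1.S1_at, below background throughout (others 12.8 to 13.5), and at 343.3 for DDX20 (others 709.8 to 796.2). In vitro replicate 2 was at 109.1 for GPAT2 (others 167.1 to 174.8). In vitro replicate 3 was at 7.8 for the AGO4 probe set MmugDNA.11294.1.S1_at, also below background throughout (others 3.5 to 4). In vitro replicate 4 was at 3.9 for DHX58 (others 30.1 to 38.6), and without it the log2 fold change of DHX58 was 0.11 in place of -0.35.

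In the in vivo group, replicate 3 was at 387 for TDRD3 (MmugDNA.1882.1.S1_s_at, others 133.7 to 157.7) and at 605.1 for PNLDC1 (others 244 to 267.6). In vivo replicate 2 was at 6.2 for TNRC6C (MmugDNA.40117.1.S1_at, others 2.1 to 2.6), below background throughout.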

How the results depend on the processing

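The TDRD1 rise kept its direction under all 20 alternatives and passed in 12. The log2 fold change with its limma adjusted p was 1.31 and 0.0526 with median centring, 1.36 and 0.150 without the intensity trend, and 1.36 and 0.0576 with the replicate block. With an array left out it ran from 1.28 to 1.54, with adjusted p from 0.0250 to 0.164, and passed in 3 of 8, and the fits in which it did not pass had 1.28 to 1.37. The count of members past the adjusted threshold was then 0 with median centring, without the trend and with the replicate block, and 0 to 2 with an array left out. Same-numbered arrays did not deviate together over all tested probe sets (correlations of -0.0467 to 0.0155). The labels do not say whether the numbers pair the pools, and these correlations alone cannot decide it.

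The count over all tested probe sets was 38. It was 10 without the intensity trend, 88 with array weights, 58 with the beta-actin ratio and 292 with the EEF1A1 ratio as a covariate, 43 with the replicate block, and 18 to 97 with an array left out. The array left out was in vivo replicate 1 at 68, in vivo replicate 4 at 97, in vitro replicate 1 at 18, and in vitro replicate 2 or 3 at 21. Members higher at an unadjusted p under 0.05 numbered 1. They numbered 2 with the median signal as pseudocount, without the trend and with robust eBayes, 3 with no filter, array weights or the replicate block, 4 with quantile normalization, 5 with either covariate, and 1 to 5 with an array left out. Lower members numbered 8, and 5 with the stricter filter or without the trend, and 4 to 10 with an array left out. Among partner genes, 0 passed. With array weights, with the EEF1A1 covariate, and in 1 left-out fit (0 to 1 over these fits) 1 passed, namely GPAT2, at limma adjusted p of 0.0368, 0.0193 and, without in vivo replicate 4, 0.0443.

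Over 60 named probe sets and 1181 values, 42 values changed sign, at 14 probe sets whose reported log2 fold change was at most 0.45 in size, and 46 never did. With quantile normalization AGO1 (MmuSTS.4291.1.S1_at) had 0.0069, DHX9 0.013 and DICER1 (MmugDNA.11573.1.S1_at) 0.033. With array weights DHX9 had 0.21 and TNRC6B (MmugDNA.15131.1.S1_at) 0.059. That TNRC6B probe set had 0.023 with the median pseudocount and 0.015 with the EEF1A1 covariate. DICER1 had 0.042 with the beta-actin and 0.036 with the EEF1A1 covariate, and its probe set MmugDNA.8316.1.S1_at had -0.017 with median centring. With an array left out the ranges were -0.21 to 0.034 and -0.19 to 0.083 for AGO1, -0.54 to 0.11 for DHX58, -0.34 to 0.24 for DHX9, -0.059 to 0.25, -0.14 to 0.11 and -0.15 to 0.38 for DICER1, -0.051 to 0.21 for MOV10, -0.12 to 0.22 for PIWIL2, -0.028 to 0.80 for PIWIL3, -0.035 to 0.23 for TDRD3 (MmugDNA.42488.1.S1_at), and -0.24 to 0.35, -0.088 to 0.31 and -0.11 to 0.23 for TNRC6B (MmugDNA.15131.1.S1_at, MmugDNA.16858.1.S1_at and MmugDNA.22928.1.S1_at). The cause of these changes was not tested. The members' median, 0.02, ran from -0.03 to 0.03 over all alternatives. Having 4 arrays per group and signals near background limit what can be seen at dim probe sets.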

Other observations

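The spread within a group was larger in vivo at most member probe sets, to the same extent as over all tested probe sets. The difference in spread was not tested. The SD of log2 values was larger in vivo at 59 of 89 tested member probe sets (66.3%), and at 66.3% of all tested probe sets. Its median over the members was 0.385 in vivo and 0.286 in vitro, against 0.431 and 0.315 over all tested probe sets. In vivo replicate 4 was the lowest in vivo array at 32 of the 89 (36.0%, against 27.7% of all), and in vivo replicate 3 was the highest at 30 (33.7%, against 27.5%).

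Member transcripts were detected more often than the array as a whole. Of 118 member probe sets 74 (62.7%) were above background on all 8 arrays, against 34.1% of all probe sets, and 10 (8.47%) were above it on none, against 15.1%. Genes with larger numbers of probe sets weigh more in these shares, TNRC6B with 7 among them. Members were chosen by gene symbol, while the shares of 34.1% and 15.1% cover all 52766 probe sets, whatever their annotation. Whether other probe sets with a gene symbol were detected as often as the members was not tested.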
